A study of Rattus norvegicus with 9 samples.

Results

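Voltage-gated ion channels are the pores through which sodium, calcium and potassium ions cross the membranes of neurons and glia. The genes described here are those whose deposited name begins with Scn and a digit (sodium channels), with Cacna, Cacnb or Cacng (calcium channels), or with Kcn, a letter or letters and a digit (potassium channels). They numbered 131 of the 30562 genes in the table: 14 sodium, 26 calcium and 91 potassium channel genes in 21 families. No name occurred on more than 1 identifier among them. The rule goes by symbol, so 33 of the 91 potassium channel genes belong to families that voltage does not gate directly: 15 inward rectifiers (Kcnj), 14 two-pore leak channels (Kcnk) and 4 calcium-activated channels of small or intermediate conductance (Kcnn). The 8 Cacng genes include the transmembrane AMPA receptor regulatory proteins, which in brain serve glutamate receptors more than calcium channels.

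The pore of a sodium or calcium channel is a single large alpha subunit, while most voltage-gated potassium channels are assembled from separate subunits of the Kcna to Kcnv families. Auxiliary subunits (the Scn beta subunits, Cacna2d, Cacnb, Kcnab, Kcnip, Kcne and Kcnmb) set how many channels reach the membrane and how fast they open and close. In hippocampal neurons sodium channels start the action potential, potassium channels end it and set the interval to the next, and calcium channels couple it to transmitter release and to gene expression.

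The RNA came from the hippocampal region of male Sprague-Dawley rats, aged 6 to 8 weeks at the start and acclimatized for 1 week, in 3 groups of 3 libraries. ChryM rats received chrysophanol, a plant anthraquinone, by gavage on 14 days; that they had been through the model protocol follows from the series title, and neither the dose nor the meaning of the letter M is stated in the labels. Model rats were fed a high-fat diet for 4 weeks, injected with streptozotocin at 50 mg/kg, which destroys insulin-producing cells, and then exposed to unpredictable mild stress for 5 weeks. Ctrl rats were normal controls. The labels do not tie libraries to single animals or pools, so the p-values speak only for the spread of the libraries at hand, part of which may be technical. The comparisons ask how rats given chrysophanol differ from model rats (ChryM vs Model), how model rats differ from normal ones (Model vs Ctrl), and how treated rats stand beside normal ones (ChryM vs Ctrl).

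Library totals of 631119 to 866048 counts were low for a whole transcriptome. The 131 channel genes held 0.287% of all counts (0.264% to 0.304% per library). A count was present in at least 1 library for 117 of them and in every library for 75; the 14 genes without any count were each under 0.438 CPM (a gene's counts set relative to the size of its library) at the limit that 0 counts over all libraries allows. Only 55 of the 131 had enough counts to be tested, with a median of 23 counts per library, against 24 for all 7073 genes tested. The 76 channel genes not tested averaged at most 8.444 counts per library and held 1315 counts in total.

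How the authors counted strands is not given in the sources used here, and some values bear on it. Mt-nd6, which is encoded on the mitochondrial strand opposite to the other mRNAs, averaged 42040 FPKM, against 7375 FPKM for Mt-co1. Kcnk15 had 675 counts, while Rims4, a gene of the presynaptic active zone that overlaps it in the RefSeq gene table (assembly GRCr8), had 17. Of the 55 tested channel genes 10 overlapped another coding gene there, and of the 12 called in any comparison 3 did: Cacna1h (with Tpsg1, 35 counts), Kcnh3 (with Mcrs1, 218 counts) and Kcnab2 (with Nphp4, 162 counts). Scn2b, Kcna2 and Kcnmb4 overlapped no gene and had none within 5 kb. The libraries keep the strand, so such values may mean that reads were counted on the strand opposite to transcription. Whether they were was not tested. Each level below is therefore the count deposited under a gene's name, which may include or consist of reads from the other strand, and not a settled measure of that gene's mRNA.

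Marker genes of hippocampal neurons were present: all 9 pan-neuronal genes, all 5 markers of CA1 pyramidal neurons and 5 of 5 for CA3 had counts, although Iyd of the CA3 list had 1 count in all. Among 7 markers of dentate granule neurons Tdo2 was at 0 and Prox1, a defining transcription factor of these cells, had 0 to 5 counts per library. Libraries differed between groups in the RNA of other tissues. The summed choroid plexus markers (9 genes) stood at 38.1 to 46.5 CPM in ChryM, 3.17 to 6.47 CPM in Model and 1573 to 1639 CPM in Ctrl, with 6 of the 9 at 0 in ChryM, 5 at 0 in Model and none at 0 in Ctrl. Meningeal fibroblast markers (7 genes) summed to 36.5 to 39.3 CPM in ChryM, 34.9 to 46.6 CPM in Model and 232.8 to 262.7 CPM in Ctrl. In such bulk tissue, fewer cells of a type and less RNA per cell cannot be told apart. Fold changes come from the quasi-likelihood test of edgeR, with p-values adjusted by Benjamini-Hochberg over all 7073 genes, a gene is called at an adjusted p under 0.05, and single-gene CPM are scaled by the trimmed mean of M-values (TMM).

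The 250 bases before the start are shown for channel genes called in ChryM vs Ctrl. Included are those whose RefSeq promoter entry (assembly GRCr8) starts at the gene's own end. Deposited counts under these names were called lower (Scn2b, Kcnj10, Kcnab2) or higher (Cacna1d) in ChryM. The Cacna1d and Kcnab2 calls were lost under 11 and 8 of 19 alternatives. The letters of the 4 windows differ widely in composition. Each is written 5′ to 3′ on the gene's strand, and capitals mark the GC box GGGCGG on either strand (CCGCCC on the other), adjoining matches included. The windows are chr8:54322133-54322382 on the plus strand for Scn2b, chr13:87334260-87334509 on the plus strand for Kcnj10, chr5:168270761-168271010 on the minus strand for Kcnab2 and chr16:5527550-5527799 on the minus strand for Cacna1d.
Scn2b: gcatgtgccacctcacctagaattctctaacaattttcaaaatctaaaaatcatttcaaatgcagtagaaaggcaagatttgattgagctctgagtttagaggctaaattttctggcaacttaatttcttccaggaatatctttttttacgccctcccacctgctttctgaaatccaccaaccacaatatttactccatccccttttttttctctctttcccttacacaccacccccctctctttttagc
Kcnj10: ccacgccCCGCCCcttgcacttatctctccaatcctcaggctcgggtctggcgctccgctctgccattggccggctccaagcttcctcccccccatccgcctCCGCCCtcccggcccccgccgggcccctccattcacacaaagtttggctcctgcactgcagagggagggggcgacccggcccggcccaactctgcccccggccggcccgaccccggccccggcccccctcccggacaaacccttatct
Kcnab2: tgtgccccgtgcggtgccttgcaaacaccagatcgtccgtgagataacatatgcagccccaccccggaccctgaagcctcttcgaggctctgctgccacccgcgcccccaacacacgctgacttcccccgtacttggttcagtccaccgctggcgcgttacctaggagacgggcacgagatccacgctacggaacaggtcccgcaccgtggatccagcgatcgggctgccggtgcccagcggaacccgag
Cacna1d: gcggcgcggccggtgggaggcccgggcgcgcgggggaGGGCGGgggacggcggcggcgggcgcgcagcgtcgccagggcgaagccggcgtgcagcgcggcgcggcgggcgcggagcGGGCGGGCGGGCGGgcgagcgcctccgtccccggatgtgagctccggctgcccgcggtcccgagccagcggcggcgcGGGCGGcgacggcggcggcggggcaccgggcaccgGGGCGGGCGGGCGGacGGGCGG
The GC box matched 9 times before Cacna1d, 2 times before Kcnj10 and not at all before Scn2b and Kcnab2; 30.5% of all 33469 promoters in the table hold at least 1 match in the same 250 bases. G and C made up 88.8% of the Cacna1d window, 72.4% for Kcnj10, 65.2% for Kcnab2 and 38.8% for Scn2b, beside a median of 51.2% over all promoters. Neither a TATA box (TATAAA, in 12.9% of all promoters) nor an E-box (CACGTG, in 5.59%) was in any of the 4 windows on either strand, and the CCAAT box (CCAAT, in 34%) matched 2 times before Kcnj10 alone. A match is a run of letters and not a measured binding site.

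Levels per gene length (deposited FPKM) spanned more than 3 orders on the log axis among the channel genes with counts. Among the abundant ones were Cacng8, an AMPA receptor auxiliary subunit, at a mean of 50.9 FPKM over 9 libraries, Scn3b, a sodium channel beta subunit, at 44.27 FPKM, and Kcnk15, a two-pore channel with the overlap described above, at 41.46 FPKM. The G-protein-gated inward rectifier Kcnj9 followed at 40.63 FPKM, Kcnmb4, the neuronal beta subunit of the large-conductance calcium-activated (BK) channel, at 33.29 FPKM, and Kcnip2, which binds A-type potassium channels, at 27.21 FPKM. Kcnj9 overlaps Igsf8, which had 574 counts beside its 843. The calcium channel beta subunits Cacnb3 and Cacnb1 averaged 25.89 and 18.14 FPKM; Cacnb1 overlaps the ribosomal protein gene Rpl19, which had 4531 counts. Kcnn2, a small-conductance calcium-activated channel, averaged 22.77 FPKM and Cacna1a, the pore of the presynaptic P/Q-type calcium channel, 17.69 FPKM. Over these genes the range of each over the 9 libraries overlapped that of the next named, in descending order of the means, so neighbours in that order are not resolved.

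**Figure D1:**
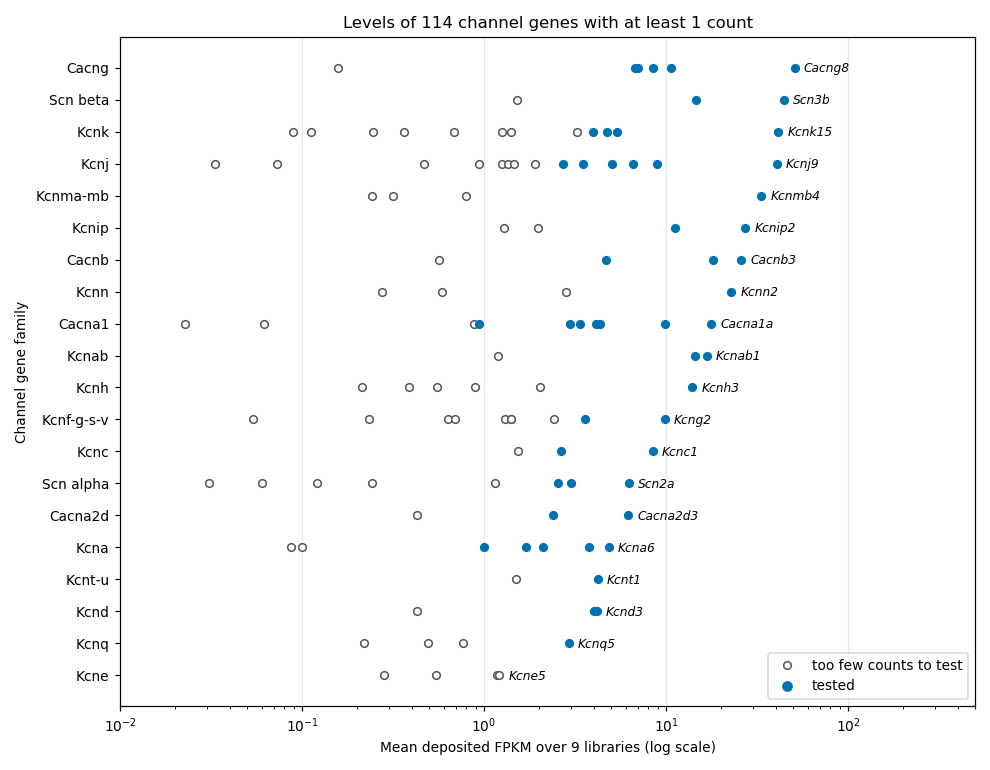
Mean deposited FPKM over the 9 libraries (log axis) of 114 channel genes with at least 1 count, by family, with the highest gene drawn in each family named. Filled points are tested genes and open points those with too few counts; Cacng8 is at 50.9 FPKM, and in the Kcne family no gene had enough counts to be tested.

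Sodium channel pores were low beside a beta subunit. The 10 sodium channel alpha genes together summed to 12.46 to 14.16 FPKM as group means, while Scn3b alone averaged 44.27 FPKM. Scn2a, the main alpha subunit of unmyelinated axons, was the highest of them at 6.234 FPKM, ahead of Scn8a at 3.003 and Scn1a at 2.545 FPKM. In other families the highest genes were Cacna2d3 (6.172 FPKM), Kcna6 (4.848 FPKM), Kcnab1 (16.72 FPKM), Kcnd3 (4.163 FPKM), Kcnq5 (2.915 FPKM), Kcnt1 (4.228 FPKM), Kcng2 (9.874 FPKM), Kcnh3 (13.97 FPKM) and Kcne5 (1.215 FPKM, 5 counts in all). None of these but Kcnh3 passed the test in any comparison.

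Few channel genes differed between ChryM and Model. Of 55 tested, 3 were called (5.45%), beside 8.27% of all genes tested; 2 were higher (3.86% of all genes were) and 1 was lower (4.41% of all genes). In Model vs Ctrl 4 were called (7.27%), beside 12.4% of all genes, with 1 higher (7.04% of all genes) and 3 lower (5.39%). In ChryM vs Ctrl 8 were called (14.5%), beside 18.8% of all genes, with 5 higher (9.83%) and 3 lower (8.96%). In each comparison the share of channel genes called was below that of all genes tested. Over the 3 groups together, an F test of any difference called 10 of the 55, beside 23% of all genes.

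Measures that do not depend on the threshold lay near those of all genes or above them. The median log2 fold change of the 55 was -0.0026 in ChryM vs Model, 0.076 in Model vs Ctrl and -0.0013 in ChryM vs Ctrl, beside 0.0015, -0.018 and -0.0096 over all genes tested. Groups did not overlap for 15 of the 55 channel genes in ChryM vs Model (27.3%, beside 23.6% of all genes), 14 in Model vs Ctrl (25.5%, beside 26.1%) and 17 in ChryM vs Ctrl (30.9%, beside 31.7%). The median size of the log2 fold change, without its sign, was 0.25 in ChryM vs Model, 0.37 in Model vs Ctrl and 0.29 in ChryM vs Ctrl, beside 0.23, 0.25 and 0.28 over all genes and a median SE of a channel gene of 0.24 to 0.26. Summed over all 131 genes, the level was 837.5 ± 38.0 FPKM in ChryM, 797.6 ± 28.1 FPKM in Model and 830.6 ± 23.7 FPKM in Ctrl (SD, n = 3), with overlapping groups. As CPM of the library total, where long genes weigh more, the same sum was 2863 to 3043 in ChryM, 2642 to 2748 in Model and 2835 to 3003 in Ctrl, and every Model library lay below every library of the other groups. Scaling by library totals in place of TMM shifted the median of all genes by -0.12 in Model vs Ctrl, 0.055 in ChryM vs Model and -0.065 in ChryM vs Ctrl. The split of higher and lower channel genes then read 1 and 6 in Model vs Ctrl, beside 3.9% and 9.26% of all genes. It read 3 and 0 in ChryM vs Model, beside 5.27% and 3.56%, and 3 and 5 in ChryM vs Ctrl, beside 7.35% and 11.6%, so all genes tilted the same way in each comparison.

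**Figure D2:**
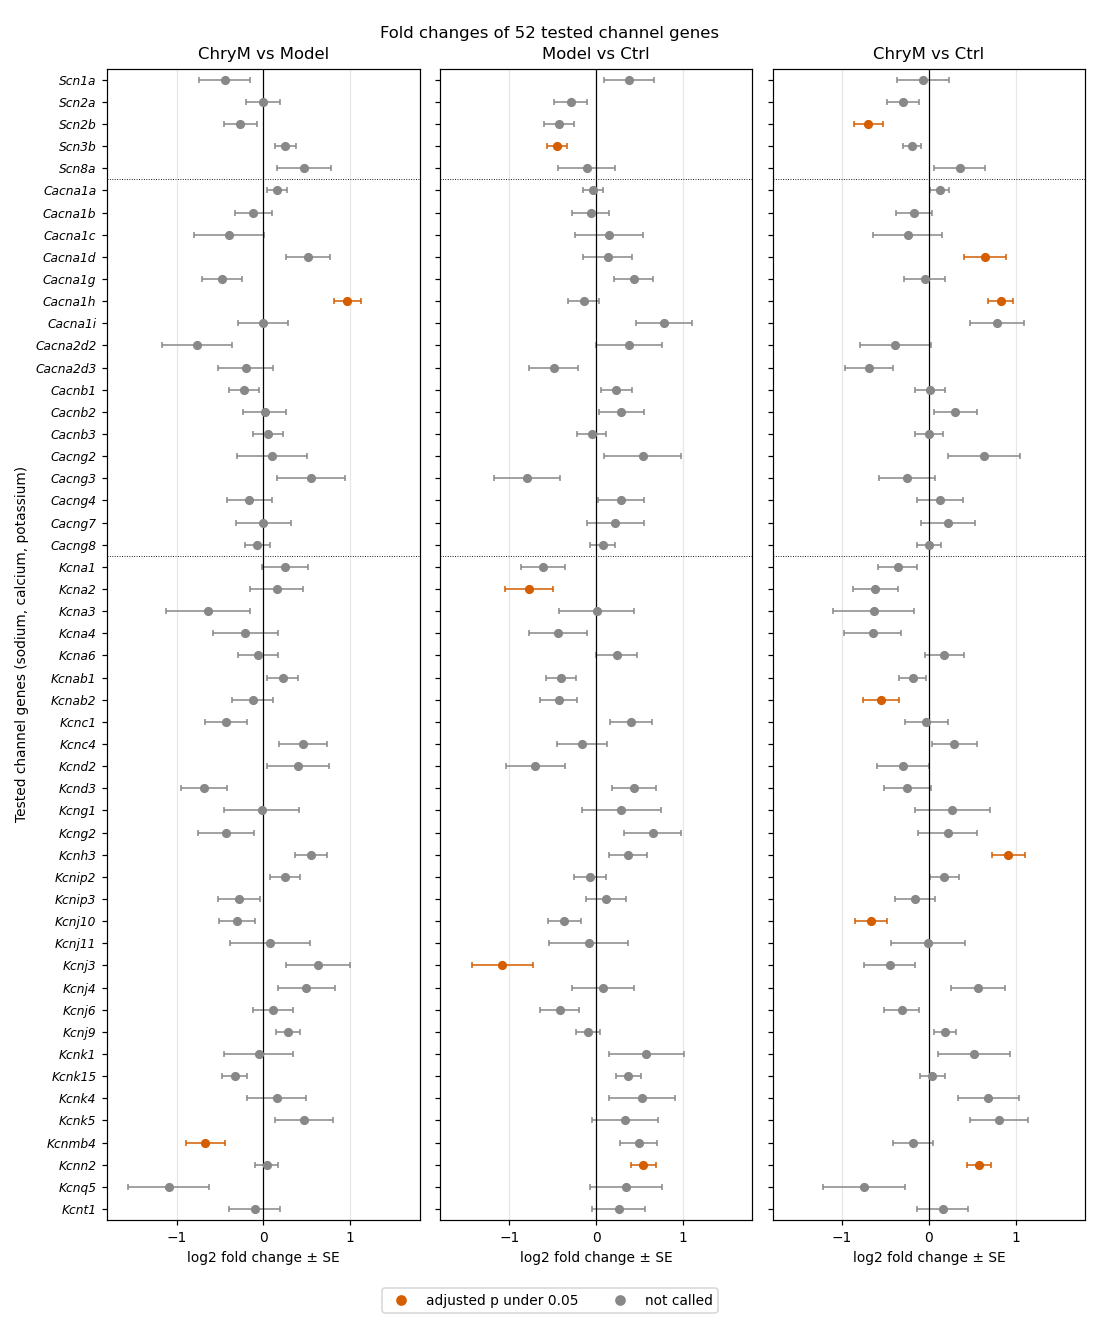
Log2 fold change ± SE (x axis) of 52 tested channel genes (rows, sodium, then calcium, then potassium) in ChryM vs Model, Model vs Ctrl and ChryM vs Ctrl; orange points have an adjusted p under 0.05 from edgeR. The points lie on both sides of 0 in every panel, and 2, 4 and 7 of them are orange.

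Sodium channel beta subunits gave the called sodium channel genes, while none of the 3 tested alpha genes (Scn1a, Scn2a and Scn8a) was called by edgeR, DESeq2 or limma-voom, and 0 had an unadjusted p under 0.05. Scn3b (ENSRNOG00000057221) encodes a beta subunit of many hippocampal neurons that shifts sodium channel gating. It stood at 173, 173 and 190 CPM in the ChryM libraries, 163, 145 and 140 CPM in Model and 192, 221 and 196 CPM in Ctrl. All 3 Model libraries were below all 3 Ctrl libraries, and the ChryM libraries lay between them without overlap. Scn3b fell in Model by 0.45 ± 0.12 on the log2 scale against Ctrl (SE, n = 3 each; adjusted p = 0.00302); the difference of ChryM from Model was 0.25 ± 0.12 (adjusted p = 0.204) and that of ChryM from Ctrl -0.19 ± 0.11 (adjusted p = 0.218). The first 2 of these comparisons share the Model libraries.

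Scn2b (ENSRNOG00000063505) encodes the beta subunit that is linked to the alpha subunit by a disulfide bond and raises its surface level; its upstream bases are the ones with the lowest GC content above. The libraries gave 55.5, 47.8 and 54.0 CPM in ChryM, 75.0, 56.4 and 57.8 CPM in Model and 90.1, 82.0 and 82.0 CPM in Ctrl. None of the ChryM or Model libraries reached the lowest Ctrl library. Scn2b fell in ChryM by 0.70 ± 0.17 on the log2 scale against Ctrl (adjusted p = 8.77e-04). Model differed from Ctrl by -0.43 ± 0.17 without passing the threshold (adjusted p = 0.085), and ChryM from Model by -0.27 ± 0.19 (adjusted p = 0.48).

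The pan-neuronal markers (9 genes) summed to 3139 to 3316 CPM in ChryM, 4015 to 4211 CPM in Model and 4026 to 4425 CPM in Ctrl, with none at 0. The ChryM sums lay below those of both other groups, as Scn2b did, whereas Scn3b was lowest in Model. The 9 genes did not move as 1. In ChryM vs Ctrl 4 were called lower and 1 higher, beside 8.96% and 9.83% of all genes. In ChryM vs Model 6 were called lower and none higher, beside 4.41% and 3.86%. Rbfox3 went the other way, with 201, 213 and 199 raw counts in ChryM and 148, 129 and 146 in Model. Most Model libraries were smaller, so raw counts overstate this difference. After scaling, the highest log2 fold change of the 9 genes in ChryM vs Model was 0.23, and it was not called. Myelin markers (13 genes, none at 0) summed to 15140 to 16550 CPM in ChryM, 8555 to 9485 CPM in Model and 15660 to 16810 CPM in Ctrl. Their part in the sodium channel results was not tested.

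Calcium channels carried the clearest call of the set, Cacna1h (ENSRNOG00000033893), the pore of a T-type channel that opens at low voltages and supports burst firing. Its libraries gave 116, 139 and 109 CPM in ChryM, 71.7, 53.0 and 62.0 CPM in Model and 68.2, 61.5 and 77.8 CPM in Ctrl. Every ChryM library was above every Model and every Ctrl library, while Model and Ctrl overlapped. The log2 fold change was 0.97 ± 0.16 against Model (adjusted p = 5.80e-07) and 0.83 ± 0.15 against Ctrl (adjusted p = 2.38e-06), and -0.14 ± 0.18 for Model against Ctrl (adjusted p = 0.708). The 2 comparisons of ChryM share its libraries. In raw counts the summed values were 290 in ChryM, 120 in Model and 162 in Ctrl.

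Cacna1d (ENSRNOG00000013147), the pore of an L-type channel that opens at moderate depolarization, rose in ChryM against Ctrl only near the threshold. The libraries gave 39.1, 38.5 and 36.0 CPM in ChryM, 29.3, 23.9 and 26.2 CPM in Model and 28.0, 24.1 and 19.8 CPM in Ctrl. ChryM lay above both other groups without overlap. The log2 fold change was 0.65 ± 0.24 against Ctrl (adjusted p = 0.0459) and 0.51 ± 0.25 against Model (adjusted p = 0.23). Over the alternatives the adjusted p ran from 0.043 to 0.197. The call was lost without any 1 of the ChryM or Ctrl libraries (0.0501 to 0.155) and without Model 1 (0.0527) or Model 2 (0.0505). It was also lost with DESeq2 (0.197), library totals (0.0843) and no count filter (0.0832).

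The other 5 tested Cacna1 genes were not called. Cacna1a, the highest, differed by 0.16 ± 0.11 between ChryM and Model and -0.033 ± 0.11 between Model and Ctrl on the log2 scale. In edgeR an unadjusted p under 0.05 was found for Cacna1g in ChryM vs Model (-0.48 ± 0.23). The same held for Cacna1i in Model vs Ctrl (0.78 ± 0.32) and ChryM vs Ctrl (0.78 ± 0.31). Summed over the 10 pore genes, the level was 49.6, 51.8 and 50.0 FPKM in ChryM, 40.8, 38.2 and 41.6 FPKM in Model and 47.2, 40.6 and 38.7 FPKM in Ctrl. ChryM stood above the rest without overlap, but the sum includes Cacna1h. That gene alone gave 13.6, 16.6 and 12.4 FPKM in ChryM, 8.04, 5.92 and 7.02 in Model and 8.41, 7.62 and 9.12 in Ctrl. Of the 7 tested pore genes, the log2 fold change was above 0 for 3 in ChryM vs Model and 4 in ChryM vs Ctrl. A sum without Cacna1h was not computed. No auxiliary calcium channel gene was called in any comparison among 2 Cacna2d, 3 Cacnb and 5 Cacng genes tested, by edgeR, DESeq2 or limma-voom. An unadjusted p under 0.05 was found for 1 of them, Cacng3, in Model vs Ctrl and for 1, Cacna2d3, in ChryM vs Ctrl. The highest, Cacng8, gave 55.9, 51.5 and 42.9 FPKM in ChryM, 43.8, 53.0 and 55.1 FPKM in Model and 63.2, 51.5 and 41.2 FPKM in Ctrl. CA1 pyramidal markers (5 genes, none at 0) summed to 360 to 470.2 CPM in ChryM, 281.6 to 328.7 CPM in Model and 345.5 to 399.8 CPM in Ctrl. Dentate markers (7 genes, Tdo2 at 0) summed to 63.8 to 102.8 CPM in ChryM, 41.4 to 59.1 CPM in Model and 81.2 to 94.1 CPM in Ctrl. For both sums ChryM stood above Model and overlapped Ctrl. In ChryM vs Model 1 of 5 tested CA1 markers and 2 of 3 dentate markers were called higher, beside 3.86% of all genes. None was called lower, beside 4.41%, and the log2 fold change was below 0 for 1 gene of each list. Wfs1 had 58, 76 and 71 raw counts in ChryM and 15, 13 and 22 in Model. C1ql2 had 41, 55 and 25 in ChryM and 15, 15 and 17 in Model. The part of these lists in the Cacna1h result was not tested.

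**Figure D3:**
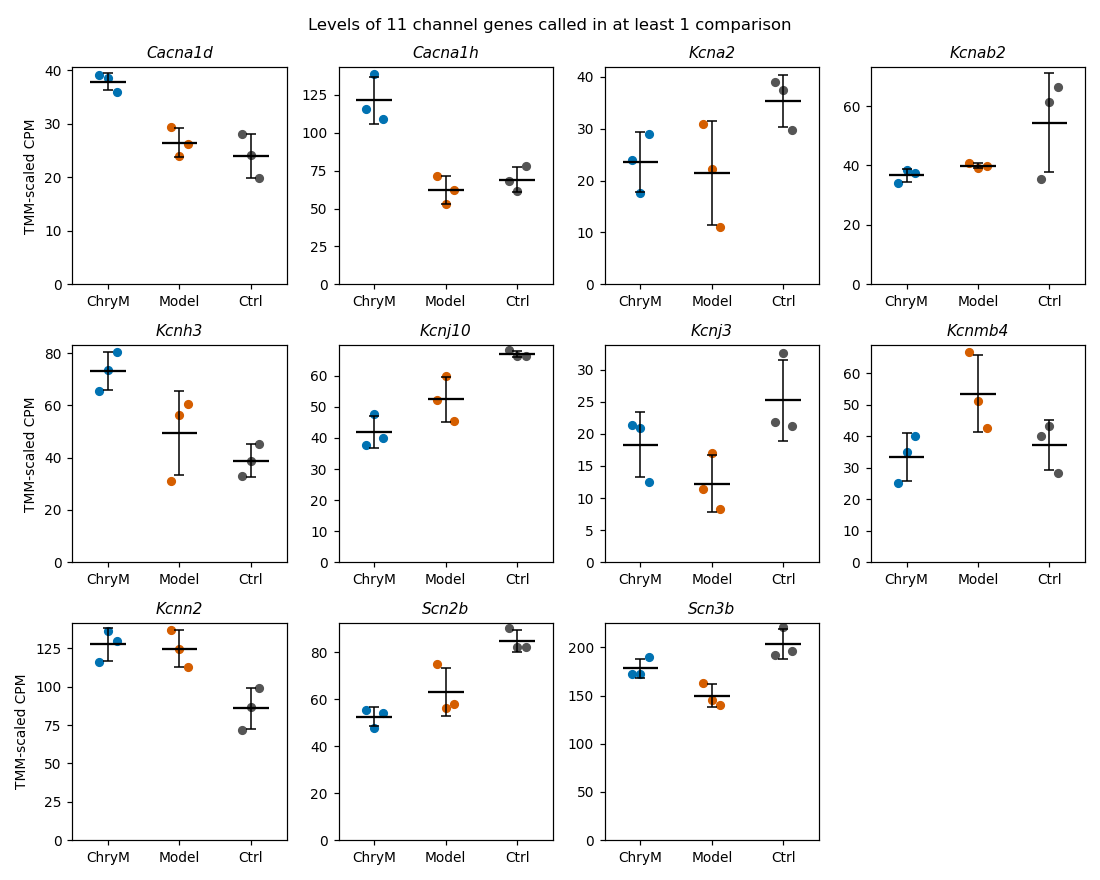
TMM-scaled CPM (y axis, from 0) of 11 channel genes called in at least 1 comparison, with 1 point per library, the mean as a bar and the SD as whiskers (n = 3) for ChryM, Model and Ctrl. Cacna1h stands above 100 CPM in the ChryM libraries alone, Kcnn2 is lowest in Ctrl, and Scn2b and Kcnj10 are highest in Ctrl.

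Voltage-gated potassium channel pores that were called include Kcnh3 and Kcna2. Kcnh3 (ENSRNOG00000057315) encodes an ether-a-go-go-like channel of forebrain neurons. The libraries gave 65.6, 73.5 and 80.3 CPM in ChryM, 31.0, 56.4 and 60.6 CPM in Model and 32.9, 38.6 and 45.2 CPM in Ctrl. ChryM was above both other groups without overlap, and the Model libraries were spread widely. Kcnh3 rose in ChryM by 0.91 ± 0.19 on the log2 scale against Ctrl (adjusted p = 7.84e-05). Against Model the difference of 0.55 ± 0.19 just missed the threshold (adjusted p = 0.0517), and it passed under 7 of the 19 alternatives, over which the adjusted p ran from 0.0262 to 0.463. Kcnh3 held most of its family's level, which summed to 22.4, 24.3 and 26.3 FPKM in ChryM, 9.69, 18.3 and 20.4 FPKM in Model and 12.2, 14.6 and 14.2 FPKM in Ctrl.

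Kcna2 (ENSRNOG00000018285) encodes a low-threshold channel of axons and of the stretches of membrane beside nodes of Ranvier. Its libraries gave 24.0, 17.5 and 29.1 CPM in ChryM, 31.0, 22.2 and 11.0 CPM in Model and 39.0, 37.4 and 29.7 CPM in Ctrl. Model 1 lay within the Ctrl range, so Model and Ctrl overlapped. Kcna2 fell in Model by 0.77 ± 0.28 on the log2 scale against Ctrl (adjusted p = 0.049), and ChryM differed from Ctrl by -0.62 ± 0.26 without a call (adjusted p = 0.0772). The first call was lost without Model 3 (adjusted p = 0.475), Ctrl 1 (0.178), Ctrl 2 (0.134), Model 2 (0.0826), ChryM 1 (0.0547) or ChryM 2 (0.0523). It was also lost with RLE size factors (0.0521), no count filter (0.1145), a spread that is not robust (0.0554) and a replicate block (0.0644). Over all alternatives the adjusted p ran from 0.0096 to 0.475.

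Kcna2 channels assemble with beta subunits, of which Kcnab2 (ENSRNOG00000011550), needed for their transport to axons, was called in ChryM vs Ctrl. It stood at 34.0, 38.5 and 37.4 CPM in ChryM, 40.8, 39.3 and 39.9 CPM in Model and 35.3, 61.5 and 66.4 CPM in Ctrl. Ctrl 1 was far below the other Ctrl libraries and within the ChryM range. Kcnab2 fell in ChryM by 0.55 ± 0.21 on the log2 scale against Ctrl (adjusted p = 0.0432), with a range of adjusted p over the alternatives of 0.00524 to 0.252; the call was lost without ChryM 1 (0.14), ChryM 2 (0.0814), ChryM 3 (0.079), Ctrl 2 (0.222) or Ctrl 3 (0.252). The Kcnab2 call was also lost with DESeq2 (adjusted p = 0.2472), limma-voom (0.0886) and no count filter (0.1208). Kcnab1, the other tested beta gene, was not called in any comparison (-0.19 ± 0.16 in ChryM vs Ctrl on the log2 scale). The myelin sums given above were lower in Model than in both other groups. ChryM differed from Model by 0.16 ± 0.31 for Kcna2 and by -0.13 ± 0.23 for Kcnab2 on the log2 scale, neither of them called. The part of myelinating cells in the Kcna2 and Kcnab2 results was not tested.

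No gene was called in the families Kcnd (2 tested genes), Kcnip (2), Kcnq (1), Kcng (2) and Kcnt (1). DESeq2 and limma-voom called none of these either, while in edgeR an unadjusted p under 0.05 was found for Kcnd2 in Model vs Ctrl and for Kcnd3 and Kcnq5 in ChryM vs Model. Kcna summed over its 8 genes stood at 11.4, 13.8 and 12.8 FPKM in ChryM, 15.5, 10.8 and 10.6 FPKM in Model and 17.3, 15.7 and 14.7 FPKM in Ctrl. ChryM was below Ctrl in this sum without overlap, and Model overlapped both.

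Calcium-activated potassium channels gave 2 called genes, with different patterns over the groups. Kcnn2 (ENSRNOG00000016675), the small-conductance channel behind part of the afterhyperpolarization in CA1 neurons, stood at 116, 136 and 130 CPM in ChryM, 137, 125 and 113 CPM in Model and 71.9, 86.8 and 99.0 CPM in Ctrl. All 6 ChryM and Model libraries were above all 3 Ctrl libraries, and ChryM and Model overlapped. Kcnn2 rose by 0.54 ± 0.15 on the log2 scale in Model against Ctrl (adjusted p = 0.00457) and by 0.58 ± 0.14 in ChryM against Ctrl (adjusted p = 6.50e-04), 2 comparisons that share the Ctrl libraries. ChryM differed from Model by 0.039 ± 0.13 (adjusted p = 0.923). Without Ctrl 1 the Model call was lost (adjusted p = 0.0782, the highest over the alternatives, which began at 0.00178), and the ChryM call held under each of 19 alternatives.

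Kcnmb4 (ENSRNOG00000054458), the BK channel beta subunit, was highest in Model. Its libraries gave 25.2, 35.0 and 40.1 CPM in ChryM, 66.8, 51.2 and 42.7 CPM in Model and 40.2, 43.4 and 28.3 CPM in Ctrl. The ChryM libraries were all below the Model libraries, by a small margin at the nearest pair. Kcnmb4 fell in ChryM by 0.67 ± 0.22 on the log2 scale against Model (adjusted p = 0.0383), and Model differed from Ctrl by 0.49 ± 0.22 (adjusted p = 0.13). The call was lost without Model 1 (adjusted p = 0.318), ChryM 1 (0.249), ChryM 2 (0.0806) or Model 2 (0.0626). It was also lost with DESeq2 (0.2203), limma-voom (0.0522), library totals (0.0692), 1 surrogate variable (0.0649) and no count filter (0.0943). Over the alternatives the adjusted p ran from 0.0205 to 0.318. The BK pore gene Kcnma1, at 0.799 FPKM with 36 counts in all, was too low to test.

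Inward rectifiers gave the remaining calls. Kcnj10 (ENSRNOG00000068444) encodes the channel by which astrocytes and oligodendrocytes take up potassium released by firing neurons. It stood at 37.8, 47.8 and 40.1 CPM in ChryM, 52.2, 59.8 and 45.4 CPM in Model and 68.2, 66.3 and 66.4 CPM in Ctrl. The Ctrl libraries lay close together and above all others. Kcnj10 fell in ChryM by 0.67 ± 0.19 on the log2 scale against Ctrl (adjusted p = 0.00484), while Model differed from Ctrl by -0.37 ± 0.19 (adjusted p = 0.222). Among the alternatives, whose adjusted p began at 0.00199, only DESeq2 missed the threshold (0.0796).

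Astrocyte markers (8 genes, none at 0) summed to 1394 to 1419 CPM in ChryM, 1442 to 1509 CPM in Model and 1524 to 1778 CPM in Ctrl, the same order of groups as Kcnj10. Of these 8 genes, 4 were called lower and none higher in ChryM vs Ctrl by the same test, beside 8.96% of all genes lower. In Model vs Ctrl 2 were called lower and none higher, beside 5.39% lower. The list was mixed: the log2 fold change was above 0 for 2 of the 8 in ChryM vs Ctrl and 1 in Model vs Ctrl. The part of astrocyte RNA in the Kcnj10 result was not tested.

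Kcnj3 (ENSRNOG00000005369), a subunit of the G-protein-gated channels through which GABA-B and adenosine receptors quiet hippocampal neurons, had few counts. The libraries gave 21.4, 21.0 and 12.5 CPM in ChryM, 11.4, 17.1 and 8.26 CPM in Model and 21.9, 32.6 and 21.2 CPM in Ctrl, from 6 to 27 counts each. Model lay below Ctrl without overlap and ChryM overlapped both. Kcnj3 fell in Model by 1.08 ± 0.35 on the log2 scale against Ctrl (adjusted p = 0.0207), and ChryM differed from Model by 0.63 ± 0.37 (adjusted p = 0.357). The call was lost without Model 3 (adjusted p = 0.182), Ctrl 2 (0.186) or Model 1 (0.0574), in a range of 0.00837 to 0.186. Without the count filter it was lost as well (0.0506). Its partner subunits Kcnj6 and Kcnj9 were not called; Kcnj6 differed by -0.42 ± 0.22 and Kcnj9 by -0.099 ± 0.14 in Model vs Ctrl on the log2 scale.

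No two-pore channel was called among the 4 tested by edgeR, DESeq2 or limma-voom; in edgeR the unadjusted p was under 0.05 for Kcnk15 in ChryM vs Model and Model vs Ctrl and for Kcnk5 in ChryM vs Ctrl. Kcnk15, the highest under its name, gave 37.5, 44.1 and 33.9 FPKM in ChryM, 41.9, 45.8 and 52.1 FPKM in Model and 35.5, 37.4 and 45.0 FPKM in Ctrl. The groups overlapped between Model and Ctrl, and no difference passed the threshold (adjusted p = 0.0749 for Model vs Ctrl and 0.158 for ChryM vs Model).

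**Figure D4:**
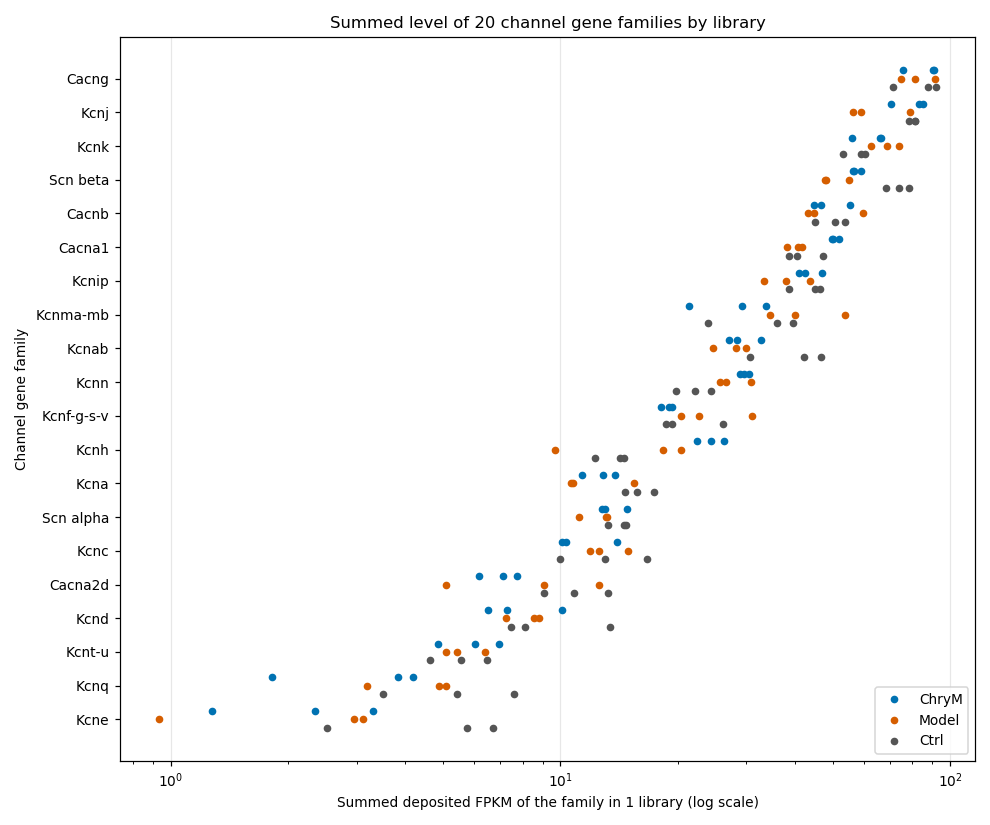
Summed deposited FPKM of 20 families (x axis, log scale) in each library, over the genes drawn in the plot of levels by family, with 1 point per library for ChryM, Model and Ctrl. The Cacna1 and Kcnh sums, which include the called Cacna1h and Kcnh3, are highest in ChryM. The Kcnn sums are lowest in Ctrl, and most other families overlap between groups.

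Too few counts kept 76 channel genes out of the test. Of the 38 among them with at least 10 counts, 114 ratios between groups were computed with exact 95% intervals that cover counting error only. For 11 ratios, of 8 genes, the interval left out 1; they are a description without adjustment. The genes named next were chosen after their values were seen. Kcnc2 had a ratio of Model to Ctrl of 0.429 (0.194 to 0.886). For Kcnj16 the ratio of Model to Ctrl was 2.13 (1.15 to 4.09). Kcnj13, an inward rectifier of choroid plexus epithelium, had 1, 4 and 1 counts in ChryM, 0, 1 and 0 in Model and 2, 4 and 4 in Ctrl, a ratio of Model to Ctrl of 0.113 (0.00261 to 0.796). Kcne2, an auxiliary subunit also known from that epithelium, had 0, 2 and 2 counts in ChryM, 1, 5 and 0 in Model and 6, 3 and 5 in Ctrl, a ratio of ChryM to Ctrl of 0.273 (0.0653 to 0.868). Other intervals of these genes included 1: the ratio of ChryM to Ctrl was 0.572 (0.171 to 1.74) for Kcnj13. That of Model to Ctrl was 0.485 (0.153 to 1.34) for Kcne2. Kcnj13 overlaps Gigyf2, which had 228 counts beside its 17. The choroid plexus sums given above were highest in Ctrl by far and lowest in Model. Between ChryM and Model that order rests on Ttr, with 37, 33 and 31 counts in ChryM and 2, 2 and 2 in Model. All 9 genes together had 104 counts in ChryM and 11 in Model. The part of choroid plexus RNA in the ratios of Kcnj13 and Kcne2 was not tested.

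Genes whose products anchor, modulate or work beside these channels were set beside them in lists. The called genes of each list below can be read against the shares of all 7073 genes tested. For ChryM vs Model, 3.86% of all genes were called higher and 4.41% lower. The shares were 7.04% and 5.39% for Model vs Ctrl. For ChryM vs Ctrl they were 9.83% and 8.96%. No list was tested against these shares. Of 12 tested sodium channel partners and anchors of the axon initial segment, none was higher and 2 were lower in ChryM vs Model, 2 were higher and 1 lower in Model vs Ctrl, and 1 was higher and 5 lower in ChryM vs Ctrl. Fgf14, an intracellular factor that binds sodium channels at the initial segment, averaged 77.0 ± 13.2 CPM in ChryM, 135 ± 6.85 CPM in Model and 81.5 ± 11.2 CPM in Ctrl (SD, n = 3). It fell in ChryM by 0.82 ± 0.15 on the log2 scale against Model (adjusted p = 6.36e-06) and rose in Model by 0.73 ± 0.14 against Ctrl (adjusted p = 4.25e-05), in comparisons that share the Model libraries; it overlaps Itgbl1, which had 217 counts. Its relative Fgf13 also fell in ChryM, by 0.56 ± 0.15 against Model (adjusted p = 0.00914) and by 0.45 ± 0.15 against Ctrl (adjusted p = 0.0223).

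Nfasc, an adhesion molecule of the initial segment and nodes, averaged 97.4 ± 8.52 CPM in ChryM, 77.4 ± 12.9 CPM in Model and 134 ± 6.86 CPM in Ctrl. It fell in Model by 0.80 ± 0.15 on the log2 scale (adjusted p = 8.02e-06) and in ChryM by 0.46 ± 0.13 (adjusted p = 0.00626), both against Ctrl. Sptbn4, the spectrin that ties sodium channels to the cytoskeleton there, rose in ChryM by 0.57 ± 0.10 (adjusted p = 4.73e-06) and in Model by 0.34 ± 0.11 (adjusted p = 0.0288) against Ctrl. The scaffold Ank2 and the adhesion molecules Cntn1 and Nrcam fell in ChryM vs Ctrl alone among the calls, by 0.46 ± 0.14, 0.72 ± 0.24 and 0.48 ± 0.14. The median log2 fold change of the 12 was -0.04 in ChryM vs Model, -0.25 in Model vs Ctrl and -0.33 in ChryM vs Ctrl, beside the medians near 0 of all genes given above. A difference between this list and the sodium channel genes was not tested.

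Calcium channel partners numbered 12 tested genes. In ChryM vs Model 1 was higher, in Model vs Ctrl 2 were higher, and in ChryM vs Ctrl 3 were higher and 4 lower; the median log2 fold changes were -0.11, -0.13 and 0.08. Rimbp2, which ties presynaptic calcium channels to release sites, rose in ChryM by 0.62 ± 0.17 on the log2 scale against Model (adjusted p = 0.00741) and by 0.49 ± 0.16 against Ctrl (adjusted p = 0.0161). Cabp1, a calcium sensor that binds the channels, averaged 171 ± 7.35 CPM in ChryM, 185 ± 20.0 CPM in Model and 111 ± 7.07 CPM in Ctrl; it rose in ChryM by 0.62 ± 0.12 (adjusted p = 2.48e-05) and in Model by 0.74 ± 0.12 (adjusted p = 8.72e-07) against Ctrl. Stac2, an adaptor of L-type channels with 71 counts in all, rose in Model vs Ctrl by 1.40 ± 0.45 (adjusted p = 0.0234), with overlapping libraries. In ChryM vs Ctrl the release factor Unc13a rose by 0.52 ± 0.17, the calmodulin genes Calm2 and Calm3 fell by 0.32 ± 0.073 and 0.39 ± 0.091, and the active zone gene Rims1 fell by 0.66 ± 0.23.

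Potassium channel partners and clustering proteins had 11 tested genes, none of them called in ChryM vs Model. In Model vs Ctrl 1 was higher and 2 lower, and in ChryM vs Ctrl 1 was higher and 3 lower. The median log2 fold change was 0.12 in ChryM vs Model, -0.46 in Model vs Ctrl and -0.36 in ChryM vs Ctrl. Dlg4, the postsynaptic scaffold that also clusters potassium channels, averaged 187 ± 16.5 CPM in ChryM, 173 ± 7.08 CPM in Model and 291 ± 15.9 CPM in Ctrl. It fell by 0.64 ± 0.10 on the log2 scale in ChryM (adjusted p = 9.18e-08) and by 0.75 ± 0.11 in Model (adjusted p = 2.66e-09) against Ctrl. Akap5, which anchors kinases to these channels, fell in Model by 0.49 ± 0.17 (adjusted p = 0.0405). Dpp6, an auxiliary subunit of A-type channels, and Kctd12, a GABA-B receptor subunit, fell in ChryM by 0.96 ± 0.28 (adjusted p = 0.00731) and 1.02 ± 0.27 (adjusted p = 0.00189) against Ctrl. Amigo3, whose relative Amigo1 binds a delayed rectifier, rose in both ChryM and Model against Ctrl by 0.60 ± 0.082 and 0.46 ± 0.085, with 3385 counts in an interval that overlaps Gmppb and Rnf123.

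Ion pumps and calcium extrusion genes, 13 tested, were called in the lower direction only: 1 in ChryM vs Model, 3 in Model vs Ctrl and 6 in ChryM vs Ctrl. The median log2 fold change was -0.13 in ChryM vs Model, -0.22 in Model vs Ctrl and -0.43 in ChryM vs Ctrl, where all 13 values were below 0. The pump beta subunits Atp1b1 and Atp1b2 fell in ChryM vs Ctrl by 0.35 ± 0.078 and 0.58 ± 0.19 on the log2 scale, the reticulum calcium pump Atp2a2 by 0.33 ± 0.11 and the plasma membrane pump Atp2b1 by 0.43 ± 0.14. Atp1b1 overlaps Nme7, which had 1799 counts beside its 4551. In Model vs Ctrl Atp2b1 fell by 0.57 ± 0.15 and the sodium-calcium exchanger Slc8a2 by 0.85 ± 0.19. Of 7 tested HCN and sodium leak channel genes only the leak channel pore Nalcn was called, and it fell in ChryM vs Ctrl by 0.71 ± 0.25 (adjusted p = 0.0306). The pan-neuronal sums above were likewise lowest in ChryM, although not every gene of that list was, and their part in these results was not tested.

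The marker lists not yet given stood as follows. GABAergic interneuron markers (8 genes) summed to 191.5 to 222.9 CPM in ChryM, 228.2 to 283.2 CPM in Model and 210.5 to 224.2 CPM in Ctrl, with Erbb4 at 0 in Model. CA3 markers (5 genes, Iyd at 0 in Model and Ctrl) summed to 113.2 to 134.2 CPM in ChryM, 125.5 to 141.0 CPM in Model and 120.8 to 152.3 CPM in Ctrl, with overlapping groups. Microglia markers (8 genes, none at 0) summed to 106.5 to 128.2 CPM in ChryM, 158.4 to 180.2 CPM in Model and 158.5 to 185.6 CPM in Ctrl, lowest in ChryM. Oligodendrocyte precursor markers (7 genes, none at 0) summed to 181.2 to 214.8 CPM in ChryM, 177.3 to 187.8 CPM in Model and 266.8 to 292.3 CPM in Ctrl. Endothelial and mural markers (7 genes, none at 0) summed to 33.9 to 41.6 CPM in ChryM, 39.4 to 60.8 CPM in Model and 59.1 to 87.9 CPM in Ctrl, and erythroid genes (3 genes, Alas2 at 0 in Model) to 99.0 to 106.5 CPM in ChryM, 65.1 to 84.0 CPM in Model and 330.1 to 357.9 CPM in Ctrl.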

How the data were processed

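Strand-specific libraries (dUTP method) were prepared from poly(A) RNA of rat hippocampus, per the labels' protocols. The authors deposited whole read counts per gene and a second table of FPKM with gene lengths, per the file headers; FPKM equalled count over length and library total in 100% of values (relative tolerance 1e-09). Per the submitters' processing notes, HISAT2 and DESeq2 were used; no version is stated. What counted the reads, with which strand setting, genome build and annotation, is not given in the sources used here. Channel genes, families, partner lists and marker lists were chosen with earlier results of these data known.

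From the deposited counts, 7073 of 30562 genes passed edgeR's filterByExpr and were scaled by TMM. One fit over all 9 libraries, with 1 coefficient per group and 6 residual degrees of freedom, used edgeR 4.0.16 in R 4.3.3 (glmQLFit, robust; glmQLFTest, two-sided; Benjamini-Hochberg over 7073 genes; biological coefficient of variation 5.5%). The printed SE is the larger of the test's error and the Poisson error of both groups' counts. The test's error was below counting error in 1 of the 4 channel calls of Model vs Ctrl and 1 of the 8 of ChryM vs Ctrl, whose p-values may be too small. Sums over lists are FPKM or CPM of the library total. Named were all channel genes called in any comparison, the 12 with the highest mean FPKM, the highest of each family and the called partner genes; some of these are not reported here, although counts over all channel genes and over the lists include them. No pair of libraries held identical values. The fit was tested on simulated data. Alternatives were other size factors (RLE), library totals, no count filter, a mean count of at least 10, a spread that is not robust, only the groups compared, limma-voom (limma 3.58.1), DESeq2 1.42.0, 1 surrogate variable (sva 3.50.0), a replicate block and leaving out each library. Promoter sequences, gene overlaps and neighbours come from RefSeq tables of the assembly GRCr8, in which all 131 channel genes were found, 90 of them with a promoter.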

Additional observations from a re-analysis of the deposited data

How the results depend on the processing

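Of the 13 calls of channel genes described above, 6 passed under every alternative run: Cacna1h in ChryM vs Model and ChryM vs Ctrl, Kcnh3, Kcnn2 and Scn2b in ChryM vs Ctrl, and Scn3b in Model vs Ctrl. The other 7 were lost under at least 1. The number of channel genes called in ChryM vs Model was 3 and came to 1 without the count filter, 1 with DESeq2 and 1 to 4 when each library was left out. In Model vs Ctrl it was 4 and came to 7 with library totals, 2 without the count filter, 2 with DESeq2 and 2 to 5 with each library left out. In ChryM vs Ctrl it was 8 and came to 4 with DESeq2 and 5 to 8 with each library left out. The F test over the 3 groups called 10, and 6 to 11 with each library left out. DESeq2 gave no adjusted p for some low-count values of Cacna1d, Kcna2 and Kcnj3, which stay out of these counts. Beyond fewer samples or genes tested, the cause of these shifts was not tested.

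Among the 11 called channel genes described above, the direction turned in 2 uncalled comparisons, each when a library was left out: Kcna2 in ChryM vs Model ran from -0.20 to 0.53 on the log2 scale, and Kcnn2 in ChryM vs Model from -0.034 to 0.11. With the replicate number as a block, 4 channel genes were called in ChryM vs Model, 3 in Model vs Ctrl and 8 in ChryM vs Ctrl. Deviations from the group means correlated at -0.0304 to 0.0421 between libraries of the same number and at -0.0425 to 0.0629 between others. At such low counts per gene these values show no pairing by number but cannot exclude 1. Whether directions turned for channel genes without a call was not computed. Depth limits the set to 55 of 131 genes.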
